A study of Mus musculus with 2 samples.

Results

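Arterial endothelial cells (ECs) of YUMMER1.7 melanoma tumors were 400 of the 6999 tumor ECs (TECs) and of the 18823 cells deposited, 246 from the control library and 154 from the Dnmt1iECKO library. TECs were cells with at least 500 detected genes, at most 10% mitochondrial UMIs, a UMI of Cdh5 or Pecam1, and no UMI of Ptprc, Epcam, Cspg4 or Myh11. Arterial ECs were chosen by the measured counts of 10 genes. They had a UMI of at least 2 of the 4 arterial markers Gja5, Bmx, Dkk2 and Mecom and of fewer than 3 of the 6 vein markers Slc6a2, Vwf, Prss23, Car8, Selp and Cytl1. A UMI is 1 counted RNA molecule, and all 400 cells entered every value unless stated.

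Each library was made by droplet-based 3′ sequencing from live CD31+CD45- cells sorted from the tumors of 3 pooled female mice aged 8 to 10 weeks, so there is 1 library for each condition. The Dnmt1iECKO genotype is Cdh5CreERT2;Dnmt1 fl/fl;ZsGreen lsl/lsl, in which tamoxifen activates a recombinase driven by the Cdh5 promoter in every kind of EC and removes Dnmt1 there, not in arterial ECs alone. The control is labeled C57BL/6, while the study's methods describe controls that carry the recombinase and the ZsGreen reporter without floxed Dnmt1. The labels place the tumors under the skin of the shoulder, while the methods describe lung tumors after injection into the tail vein. TECs classed below as aerocyte-like, by at least 3 markers of a lung capillary cell, numbered 1630 in control and 504 in Dnmt1iECKO. Mice, batch and condition cannot be told apart with 1 library each, no test across libraries was possible, and the 95% intervals given cover counting error only.

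Arterial ECs line the vessels that carry blood into a tissue under high flow and pressure. Their identity is set during vessel development by VEGF and Notch signals, in which the ligand Dll4 acts on Notch1 and the effector RBPJ switches on the Hey1 and Hey2 repressors, together with SoxF transcription factors. Mature arterial ECs are joined by the gap junction proteins connexin 37 (Gja4) and connexin 40 (Gja5), display ephrin-B2 (Efnb2) toward the EphB4 of veins, and lie on an elastic wall. Dnmt1 is the enzyme that copies DNA methylation onto the new strand after replication, and loss of promoter methylation can permit expression of silenced genes.

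The markers of the rule lie, in the GRCm38 annotation, at chr3:96904693-97077416 (Gja5), chrX:164192842-164258193 (Bmx), chr3:132085292-132180304 (Dkk2) and chr3:29951296-30548008 (Mecom). The 250 bases before the start of 2 rule genes and of 2 genes that the rule did not use are shown, because these genes carry the arterial pattern described here and Notch is its textbook input. Capitals mark the RBPJ core TGGGAA, searched on both strands, so that the reverse strand reads TTCCCA. Gja5 is at chr3:97032152-97032401 (plus strand), Bmx at chrX:164258194-164258443 (minus strand), Gja4 at chr4:127314040-127314289 (minus strand) and Cxcl12 at chr6:117168285-117168534 (plus strand), all from RefSeq on GRCm38.p6. The Gja5 window lies inside the Gja5 interval given above, before a RefSeq transcript start and not before the start of that interval.
Gja5: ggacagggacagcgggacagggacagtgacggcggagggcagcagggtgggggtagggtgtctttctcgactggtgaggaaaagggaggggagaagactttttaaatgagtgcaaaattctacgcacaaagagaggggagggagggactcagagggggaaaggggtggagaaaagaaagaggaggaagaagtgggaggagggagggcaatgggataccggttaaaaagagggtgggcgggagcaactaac
Bmx: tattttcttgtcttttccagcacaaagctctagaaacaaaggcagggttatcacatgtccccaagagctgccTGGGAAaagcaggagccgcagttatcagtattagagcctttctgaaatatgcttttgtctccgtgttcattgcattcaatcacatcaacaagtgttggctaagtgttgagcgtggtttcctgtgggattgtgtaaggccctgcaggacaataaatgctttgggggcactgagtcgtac
Gja4: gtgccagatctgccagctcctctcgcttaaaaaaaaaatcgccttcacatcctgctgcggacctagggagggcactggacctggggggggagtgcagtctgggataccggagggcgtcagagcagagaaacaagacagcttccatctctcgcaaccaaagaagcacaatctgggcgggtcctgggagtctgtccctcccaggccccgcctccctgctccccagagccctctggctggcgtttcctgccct
Cxcl12: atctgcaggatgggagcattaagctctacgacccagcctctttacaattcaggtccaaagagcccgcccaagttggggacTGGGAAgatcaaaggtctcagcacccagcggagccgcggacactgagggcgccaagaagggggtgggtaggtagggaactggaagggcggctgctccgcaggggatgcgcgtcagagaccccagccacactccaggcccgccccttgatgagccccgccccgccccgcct
The core is present in the Bmx window, starting at base -178, and in the Cxcl12 window at base -170, counted from the transcript start, and these letters are not in the Gja5 and Gja4 windows. Of 10 arterial genes searched, these were the 2 with a match, and Efnb2, Cxcr4, Dkk2, Sema3g, Unc5b and Ltbp4 had none. It was found in 21.6% of all 32851 windows of the RefSeq table. Counts over gene sets were void, because 77 of the 102 genes at least 2-fold higher in arterial ECs and 25 of the 32 arterial identity genes had a window in that table. A match of 6 letters is a description of the sequence and not a binding site.

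The control library held 9301 cells and 123830489 UMIs and the Dnmt1iECKO library 9522 cells and 141433493 UMIs. Arterial ECs had 4060944 and 2719144 UMIs in all, with a median of 13036 and 14307 UMIs per cell, against 9521 and 9565 in other TECs. Levels are given as CPM, the UMIs of a gene per 1000000 UMIs summed over the arterial ECs of a library, and ratios as log2. The pan-endothelial genes Cdh5 (1252 and 1277 CPM) and Pecam1 (1208 and 1189 CPM) were close to their levels in other TECs, with log2 ratios of -0.10 and 0.05 for Cdh5 and of -0.14 and -0.03 for Pecam1. The libraries shared 29 barcodes, of which 0 belonged to arterial ECs.

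Cells with UMIs of at least 3 of 10 fibroblast genes made up 17 of the 246 control arterial ECs (6.91%) and 28 of the 154 Dnmt1iECKO arterial ECs (18.2%), so the main results are given with and without them. They were deep, with a median of 25670 and 26213 UMIs, and held 12.2% and 29.1% of the arterial UMIs. The summed fibroblast list stood at 770 and 1649 CPM in arterial ECs and at 21.3 and 30.1 CPM without these cells, with Lum at 0 in both libraries. In the same cells the arterial gene Hey1 was at 20.2 and 61.9 CPM, against 125 and 117 CPM in the remaining arterial ECs. Among the other marker lists, summed levels in control and Dnmt1iECKO arterial ECs were 71.7 and 190 CPM for platelets and red cells (Tubb1 at 0 in control). For lymphatic ECs they were 619 and 300 CPM (Reln at 0 in both), of which Lyve1 alone made up 581 and 256 CPM. Lyve1 was also at 477 and 490 CPM in other TECs. The sums were 41.4 and 87.2 CPM for immune cells (Cd3d at 0 in control) and 330 and 399 CPM for smooth muscle. They were 348 and 346 CPM for epithelium, and 22.9 and 21.0 CPM for melanoma. In all, 97 control (39.4%) and 61 Dnmt1iECKO (39.6%) arterial ECs held at least 3 markers of some other cell type, among them 47 and 19 cells for epithelium, 43 and 24 for smooth muscle and pericytes, 20 and 21 for platelets and red cells and 5 and 11 for lymphatic ECs. Without all of these cells, 47 genes rather than 147 were at least 2-fold higher in Dnmt1iECKO arterial ECs. The part of each single list other than that of fibroblasts was not tested.

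Most arterial ECs were admitted by Mecom, a zinc finger transcription factor, with Gja5 or with Bmx, a cytoplasmic tyrosine kinase. Mecom was detected in 91.5% of control and 90.9% of Dnmt1iECKO arterial ECs, Gja5 in 70.7% and 63.0%, Bmx in 63.4% and 68.2%, and Dkk2, a secreted Wnt modulator, in 3.25% and 6.49%. Gja5 with Mecom alone was found in 86 and 44 cells, Bmx with Mecom alone in 67 and 55, and Gja5, Bmx and Mecom together in 68 and 32. A UMI of Mecom is weak evidence by itself, since 93.5% and 88.6% of Epcam+ cells without Cdh5 or Pecam1 also had one, at a median of 23740 and 26428 UMIs per cell. Over all TECs, arterial ECs included, Mecom was detected in 17.5% of control and 22.1% of Dnmt1iECKO cells. Just outside the threshold lay 775 and 337 TECs with 1 marker, and just inside it 176 and 114 with 2.

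Several genes that the rule did not use differed in graded steps with the number of arterial markers detected. In control TECs with 0, 1, 2 and 3 or 4 markers, the Notch target Hey1 stood at 35.5, 62.5, 102 and 133 CPM, and in Dnmt1iECKO TECs at 42.2, 59.6, 90.3 and 131 CPM. Cxcl12, the chemokine ligand of Cxcr4, went from 147 to 298, 560 and 1160 CPM in control and from 202 to 375, 724 and 1798 CPM in Dnmt1iECKO. Efnb2 went from 213 to 290, 470 and 655 CPM in control and from 208 to 242, 378 and 545 CPM in Dnmt1iECKO. The capillary gene Ednrb, the endothelin B receptor that marks aerocytes of the lung, went the other way in control, at 664, 229, 149 and 71.7 CPM, but was not graded in Dnmt1iECKO, at 450, 192, 221 and 68.1 CPM. The aerocyte gene Car4 likewise stood at 781, 343, 374 and 194 CPM in Dnmt1iECKO, and Sox17 at 170, 159, 150 and 263 CPM. Without the fibroblast-marker cells both aerocyte genes were graded in Dnmt1iECKO. Ednrb then stood at 505, 254, 161 and 42.3 CPM and Car4 at 877, 451, 286 and 180 CPM. Sox17 was still not graded, at 187, 213, 181 and 283 CPM. Cells just outside the threshold were intermediate between cells with 0 and cells with 2 markers for Hey1, Cxcl12 and Efnb2 in both libraries. Deeper cells have more chances to show a marker, and median depth rose along these steps, from 8734 UMIs in control TECs with 0 markers to 11840 with 1 and 12548 with 2.

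**Figure D1:**
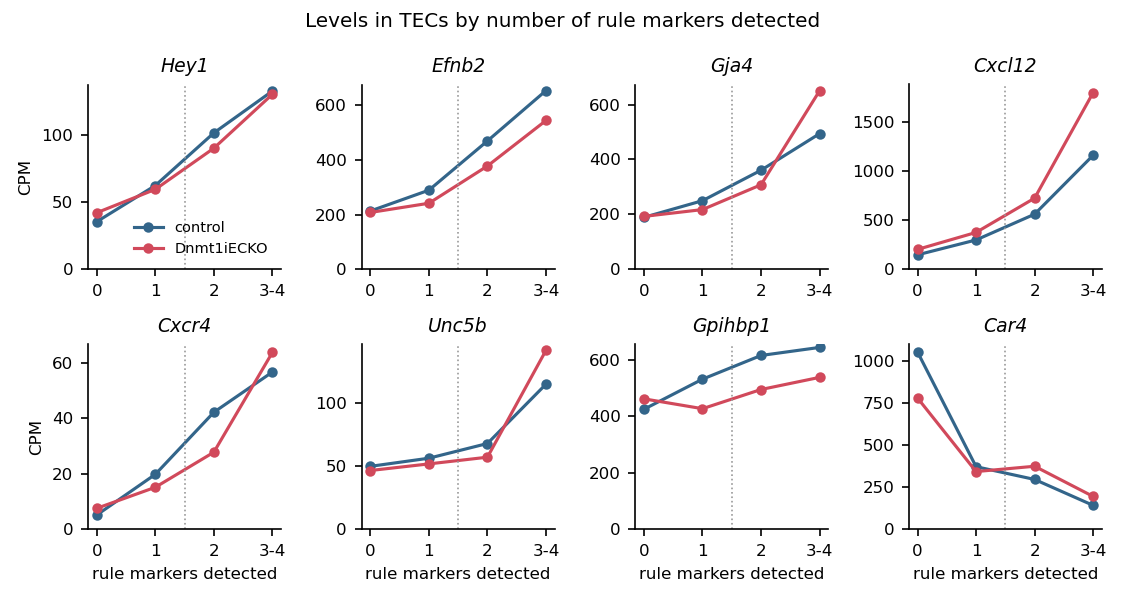
CPM of 8 genes in TECs with 0, 1, 2 and 3 or 4 of the 4 arterial markers and at most 2 vein markers, for the control and Dnmt1iECKO libraries; the dotted line is the threshold of the arterial rule. Hey1, Efnb2, Gja4, Cxcl12 and Cxcr4 rise from left to right in both libraries, with Cxcl12 reaching 1160 and 1798 CPM.

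Against other TECs, the arterial ECs carried the ligand, the receptor, the gap junction and the Notch target genes of the arterial program at higher levels in both libraries. This contrast is the one that chose the cells, so its values are a description without a test. Of 13058 genes with at least 100 UMIs over all TECs, 102 were at least 2-fold higher in both libraries (0.781%) and 311 at least 2-fold lower (2.38%), and the median of all genes was -0.02 in each library. Without the fibroblast-marker cells these were 118 (0.964%) and 266 (2.17%) of 12240. With all cells kept, 46.9% of the 13058 genes were above 0 in control and 46.7% in Dnmt1iECKO, so at most 46.7% were higher in both. That share is the background of the counts of list genes higher in both libraries given below. A fixed list of arterial identity genes, without the 4 rule genes, had 32 members compared. Of these, 27 were higher in both libraries, 4 were lower in both, and 6 were at least 2-fold higher (Cxcl12, Depp1, Efnb2, Hey1, Ltbp4 and Nebl), with a median of 0.48 (0.68 without the fibroblast-marker cells). Nebl, an actin-binding protein gene, was lost from this count without those cells, at -0.44 and 1.19.

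The rule itself sets high levels of its own genes. Gja5 stood at 102 and 69.1 CPM in control and Dnmt1iECKO arterial ECs against 3.88 and 5.27 CPM in other TECs, Bmx at 83.2 and 93.0 against 7.10 and 15.03 CPM, and Mecom at 274 and 287 against 42.9 and 86.7 CPM. Dkk2 added little, at 3.94 and 13.6 CPM against 3.54 and 7.20 CPM.

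A chemokine ligand and its receptor, neither used by the rule, were both higher. Cxcl12 was at 758 CPM (732 to 785) in control and 1002 CPM in Dnmt1iECKO arterial ECs, against 176 and 237 CPM in other TECs, a log2 ratio of 2.11 and 2.08. Its receptor Cxcr4 was at 47.0 and 37.1 CPM against 8.12 and 8.31 CPM. Esm1, a secreted proteoglycan induced by VEGF, was at 55.7 and 56.3 CPM against 7.95 and 8.48 CPM, a larger ratio of 2.81 and 2.73.

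Among the signals of arterial identity, Hey1 was at 112 and 101 CPM against 39.4 and 41.8 CPM in other TECs. Efnb2 was at 531 and 421 against 218 and 195 CPM, and Gja4 at 405 and 396 against 203 and 191 CPM. The semaphorin Sema3g (log2 ratio 1.07 and 0.88) and the netrin receptor Unc5b (0.80 and 0.95) were near 2-fold. The upstream parts of the pathway differed less. Dll4 was at 133 and 110 against 70.3 and 71.6 CPM, Notch1 at 247 and 226 against 182 and 165 CPM, and the SoxF factor Sox17 at 209 and 179 against 166 and 155 CPM. The Notch list as a whole had a median of 0.09, with its targets Hey1 and Hey2 the members at least 2-fold higher.

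Of 36 vessel wall matrix genes compared, 20 were higher and 6 lower in both libraries, with a median of 0.26, and Lama3 and Ltbp4 were at least 2-fold higher. Ltbp4, which tethers latent TGF-beta to elastic fibers, was at 90.6 and 163 CPM against 43.0 and 76.2 CPM, and among the 15 highest genes of the table the proprotein convertase Pcsk5 was at 436 and 424 against 131 and 138 CPM. Thsd7a, which carries thrombospondin repeats, was at 113 and 154 against 26.6 and 61.2 CPM. The polyamine transporter Atp13a3 was at 255 and 192 against 29.6 and 35.4 CPM (log2 3.11 and 2.44), and Amd1, an enzyme of polyamine synthesis, was at 109 and 96.0 against 47.3 and 41.3 CPM. Atp13a3 UMIs were also found in 91.1% and 89.9% of Epcam+ background cells. The Mediator kinase Cdk19 (1.21 and 1.49) and the unnamed transcript Gm14207 (1.63 and 1.47) completed the 15.

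**Figure D2:**
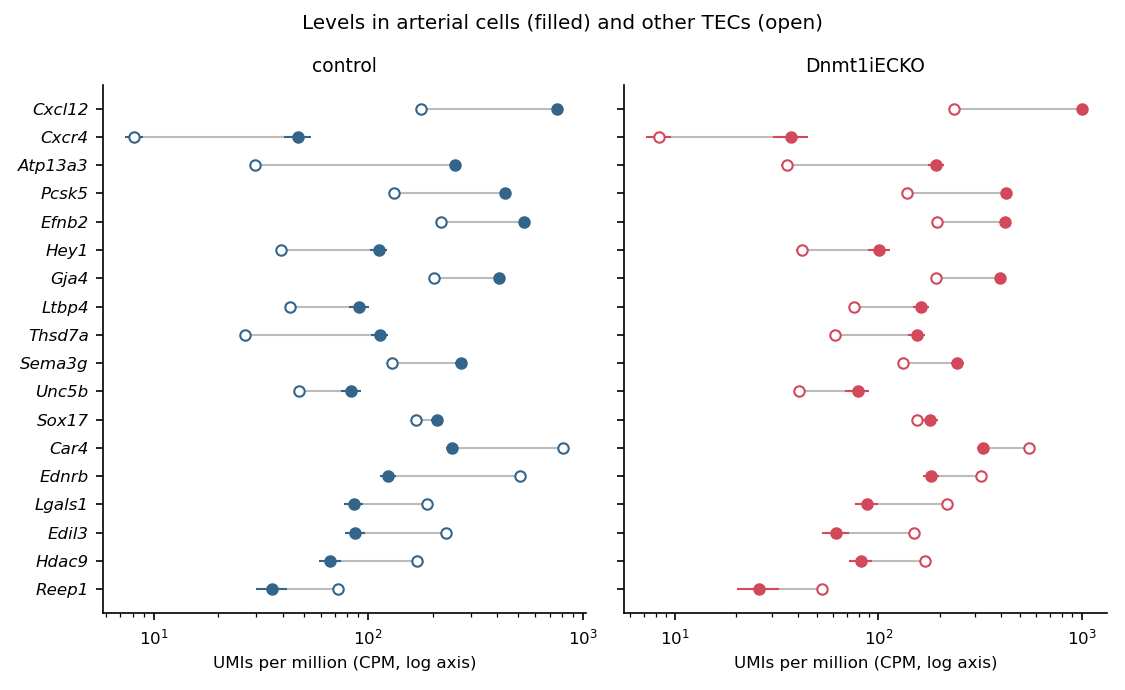
CPM on a log axis of 18 genes in arterial ECs (filled) and other TECs (open) of the control and Dnmt1iECKO libraries, with exact Poisson 95% intervals. The genes of the rule are not plotted, and Cxcl12, Cxcr4, Hey1, Efnb2 and Gja4 are higher in arterial ECs in both libraries.

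Aerocyte genes were lower in arterial ECs. All 8 that were compared were lower in both libraries, with a median of -1.21, Ednrb at 124 and 181 CPM against 511 and 319 CPM and the carbonic anhydrase Car4 at 245 and 328 against 811 and 549 CPM. General capillary genes were not lower as a group, with 6 of 8 higher in both libraries and a median of 0.19. Of 11 vein genes outside the rule, 4 were lower and 0 higher in both libraries, with medians of 0.06 in control and -1.04 in Dnmt1iECKO. Vegfc, a growth factor for lymphatic ECs, was the arterial-list gene at least 2-fold lower, at 27.8 and 23.9 against 91.1 and 126 CPM. The 8 genes lowest in both libraries were Prss23, which the rule used, Gm30382 (-1.79 and -1.76), the potassium channel Kcnh1 (-1.35 and -1.54), the matrix protein Edil3 (-1.40 and -1.27), the lectin Lgals1 (-1.14 and -1.31), the deacetylase Hdac9 (-1.35 and -1.05), Reep1 (-1.03 and -1.03) and Ogfrl1 (-0.96 and -1.07). For Lgals1, leaving out the fibroblast-marker cells gave -0.81 and -0.52.

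Costimulation, checkpoint and leukocyte adhesion genes were not higher as groups in the arterial cells than in other TECs. Of 8 costimulation and checkpoint genes compared, 0 were higher and 6 were lower in both libraries (median -0.22). Of 13 leukocyte adhesion genes 2 were higher and 7 were lower (median -0.26). The rule bears on the adhesion values, since it leaves TECs with at least 3 vein markers among the other TECs. Vcam1 stood at 797 and 1458 CPM in those cells. In arterial ECs it was at 236 and 201 CPM, against 164 and 412 CPM in all other TECs. Cell cycle genes had 12 of 18 higher in both libraries, with a median of 0.38, but 5 cells held 57.6% of their UMIs in control and 69.9% in Dnmt1iECKO arterial ECs.

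Set beside vein-like TECs (364 and 273 cells with at least 3 of the vein markers), aerocyte-like TECs (1630 and 504 cells with at least 3 aerocyte markers) and general capillary-like TECs (2071 and 822 cells with at least 2 general capillary markers), arterial ECs had the highest Cxcl12, Hey1 and Gja4 in both libraries. Cxcl12 was next highest in general capillary-like TECs at 243 and 304 CPM, followed by vein-like (114 and 198) and aerocyte-like (113 and 170) TECs, whose control values differ by less than their counting intervals. Gja4 had the same neighbor, at 330 and 309 CPM in general capillary-like TECs. Not every gene higher in arterial ECs than in all other TECs was highest there. Sox17 was higher in general capillary-like TECs (261 and 242 CPM) than in arterial ECs (209 and 179 CPM). Ltbp4 stood at 104 and 157 CPM in vein-like TECs and at 90.6 and 163 CPM in arterial ECs, with overlapping counting intervals in each library. Vcam1, a docking protein for leukocytes, had another order, with 797 and 1458 CPM in vein-like TECs and 236 and 201 CPM in arterial ECs. Mecom was not arterial alone, standing at 142 and 282 CPM in vein-like TECs.

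**Figure D3:**
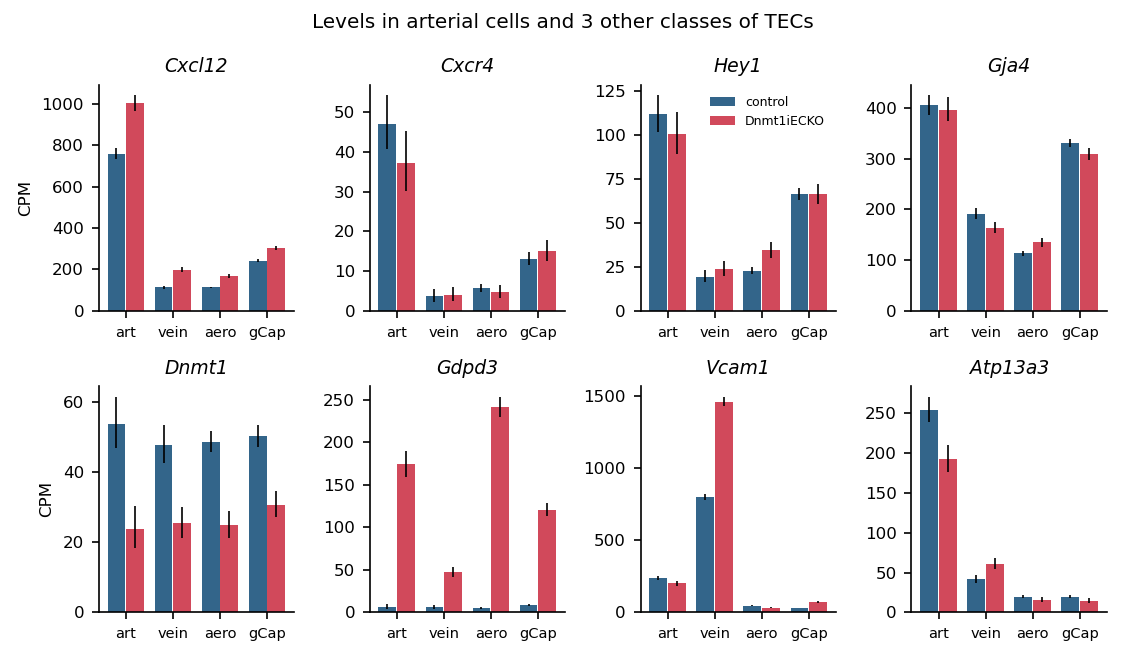
CPM with exact Poisson 95% intervals of Cxcl12, Cxcr4, Hey1, Gja4, Dnmt1, Gdpd3, Vcam1 and Atp13a3 in arterial, vein-like, aerocyte-like and general capillary-like TECs of both libraries. Cxcl12 is highest in arterial ECs, Vcam1 in vein-like TECs, and Gdpd3 stands out in every Dnmt1iECKO class.

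Arterial ECs were a larger share of TECs in the Dnmt1iECKO library, 7.41% (6.32 to 8.63, Clopper-Pearson) against 5.00% (4.41 to 5.64) in control, a ratio of 1.48 (1.20 to 1.82). The rule's markers were more often detected in all Dnmt1iECKO TECs, with Bmx in 10.98% against 6.54% and Dkk2 in 2.21% against 0.975%. The ratio kept its direction under each setting tried, but its interval included no difference when 3 markers were required (70 and 40 cells, log2 0.44, -0.16 to 1.02), without Bmx (0.36, -0.04 to 0.75) and without Mecom (0.49, -0.02 to 0.99). Without the fibroblast-marker cells 229 and 126 cells remained and the log2 ratio was 0.43, against 0.57 with them. After each TEC was thinned to 2000 UMIs, 57 of 4564 control TECs (1.25%) and 40 of 1904 Dnmt1iECKO TECs (2.10%) met the rule, with 358 and 173 shallower TECs left out. The limit on vein markers removed 42 control and 51 Dnmt1iECKO cells that had 2 or more arterial markers.

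Dnmt1, the gene targeted, was lower in Dnmt1iECKO arterial ECs, at 23.9 CPM (65 UMIs, 18.4 to 30.5) against 53.9 CPM (219 UMIs, 47.0 to 61.6), a log2 ratio of -1.17 (-1.60 to -0.77). Without the fibroblast-marker cells the arterial ratio was -0.98, at 29.1 against 57.5 CPM. In other TECs, with all cells kept, the ratio was -0.85. The reads come from the 3′ ends of transcripts and the deleted exons are not given in the sources used here, so these UMIs need not come from intact transcript.

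Comparing Dnmt1iECKO with control asks how arterial ECs differ where Dnmt1 has been deleted. Few genes passed a limit of 2-fold. Of 7792 genes with at least 100 UMIs over both libraries' arterial ECs, 147 were at least 2-fold higher (1.89%) and 37 at least 2-fold lower (0.475%) in Dnmt1iECKO, and the median of all genes was -0.03. Without the fibroblast-marker cells, 81 (1.17%) and 29 (0.417%) of 6949 genes passed the same limits and the median was -0.02. The extremes of the full table came from a few cells. Hemoglobin Hbb-bs had 15 control and 3503 Dnmt1iECKO UMIs, the latter in 5 cells with 50.1% in 1 of them, and Csmd1 had 501 control UMIs, 87.2% of them in 1 cell. Genes named next therefore had a UMI in at least 10% of the arterial ECs of the higher library.

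**Figure D4:**
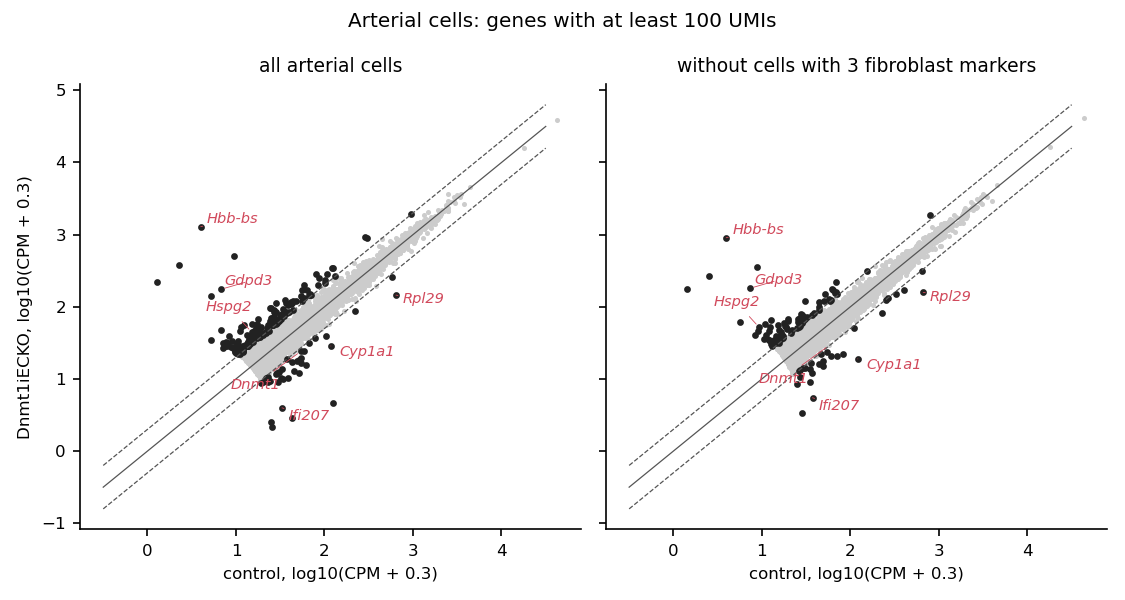
Log10 of CPM plus 0.3 of each gene in control (x axis) and Dnmt1iECKO (y axis) arterial ECs, with all cells and without the fibroblast-marker cells; dashed lines mark 2-fold. Most genes lie between the lines, Gdpd3 lies far above them, and Rpl29, Cyp1a1 and Ifi207 lie below them in both panels.

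Gdpd3, which encodes a glycerophosphodiester phosphodiesterase of lysophospholipid metabolism, had the highest ratio. It went from 26 to 473 UMIs, from 6.40 to 174 CPM, a log2 ratio of 4.76 (4.19 to 5.39) or 27.2-fold. It was detected in 23 control cells (9.35%) and 94 Dnmt1iECKO cells (61.0%), with at most 25 UMIs in 1 cell, and without the fibroblast-marker cells the log2 ratio was 4.68. Thinned to 2000 UMIs, with 1 cell of each library left out, the shares were 2.45% and 26.8%. Among Epcam+ background cells 3.25% and 12.7% had a Gdpd3 UMI. A similar ratio, 4.44, was found in other TECs, and Dnmt1iECKO levels were 242, 121 and 47.1 CPM in aerocyte-like, general capillary-like and vein-like TECs. Gdpd3 lies at chr7:126766334-126775649 on the plus strand. The 170 bases before its start that overlap no annotated exon, chr7:126766164-126766333 (plus strand, RefSeq, GRCm38.p6), are shown because DNA methylation acts at CpG sites, and capitals mark the 1 CpG they hold. The full window of 250 bases, of which 80 overlap an annotated exon and are not shown, holds 6 CpG sites. The same comparison over all genes at least 2-fold higher in Dnmt1iECKO was void, because 114 of the 147 had a window, and no methylation was measured in these files.
Gdpd3: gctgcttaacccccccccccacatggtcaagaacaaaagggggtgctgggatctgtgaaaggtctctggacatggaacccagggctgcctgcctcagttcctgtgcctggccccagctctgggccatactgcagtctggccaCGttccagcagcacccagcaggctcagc

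Fibroblast-marker cells held most Dnmt1iECKO UMIs of 8 of the other 9 highest genes, the exception being Hist1h2ae. Alpl, the tissue-nonspecific alkaline phosphatase, went from 20 to 93 UMIs (4.92 to 34.2 CPM, log2 2.80), with 54.8% of the latter in fibroblast-marker cells and a ratio of 1.96 without them. The histone gene Hist1h2ae went from 44 to 126 UMIs (2.10, and 2.39 without them), with 63.6% of its control UMIs in 1 cell, and shares sequence with other histone genes. Dpep1, a membrane dipeptidase, went from 45 to 143 UMIs, of which fibroblast-marker cells held 100% and 91.6%. They held 93.9% and 100% of the UMIs of G0s2, an inhibitor of lipolysis (2.19), 96.4% and 100% of those of the glutamate receptor gene Gria1 (2.18), and 90.3% and 95.5% of those of Cdo1, which oxidizes cysteine (2.04). They also held 75.8% and 91.4% of the UMIs of 1200007C13Rik (2.25). Outside them, low levels were left, at 0 and 6.23 CPM for Dpep1, 3.08 and 7.26 CPM for Cdo1 and 2.24 and 4.67 CPM for 1200007C13Rik. For the interferon-inducible gene Ifi27l2a the ratio of 2.01 became -0.82 without these cells, and for Coq8b, a kinase of coenzyme Q synthesis, 2.11 became 0.52.  Gdpd3 differed from them, with 26.6% of its Dnmt1iECKO UMIs in those cells, close to their 29.1% share of all UMIs.

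Of the 10 lowest genes, 4 were also at least 2-fold lower in other TECs. Rpl29, a ribosomal protein gene with many pseudogene copies that make its count uncertain, went from 641 to 145 CPM (log2 -2.15), with -2.21 in other TECs. Cyp1a1, the cytochrome P450 induced through the aryl hydrocarbon receptor, went from 118 to 28.3 CPM (-2.06, and -2.69 without the fibroblast-marker cells) and from 47.2% to 7.79% of cells. The serpin Serpina3f (-1.85, other TECs -1.10) and the interferon-inducible gene Ifi208 (-1.81, other TECs -1.66) completed this set.

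The remaining 6 were not 2-fold lower in other TECs. Ifi207, a nuclear DNA sensor family gene with near copies, went from 133 to 10 UMIs (32.8 to 3.68 CPM, log2 -3.15, -4.25 to -2.23), whereas its ratio in other TECs was 0.31. In control it was higher in arterial ECs than in other TECs (4.24 CPM). The metalloprotease Tll1 went from 32.3 to 9.93 CPM (-1.70) and the matrix proteoglycan Vcan from 53.9 to 19.5 CPM (-1.47), against 1.05 and 1.12 in other TECs. The protocadherin Pcdh7 was at -1.49 against 0.77, with 68.9% and 65.3% of its UMIs in fibroblast-marker cells, and -1.02 without them. The glutamate receptor gene Grik2 was at -1.69 against -0.45, and Slfn9, an interferon-induced Schlafen gene, at -1.50 against 0.04. The differences between arterial ECs and other TECs were not tested, and Slfn9, Pcdh7 and Vcan turned sign when the cells were chosen after thinning.

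The arterial program itself differed little between the libraries. Of 31 arterial identity genes compared, 13 were higher in Dnmt1iECKO (17 of 29 without the fibroblast-marker cells), where 46.0% of all 7792 genes were above 0, 2 at least 2-fold (Cdh13 at 1.10 and the fibulin Fbln2 at 1.12) and 0 at least 2-fold lower, with a median of -0.05 (0.09 without the fibroblast-marker cells) beside -0.03 over all genes. Hey1 (-0.15, -0.37 to 0.07) and Gja4 (-0.03, -0.14 to 0.08) had intervals that included no change in either direction. Efnb2 was lower, 421 against 531 CPM (-0.33, -0.44 to -0.23, and -0.21 without the fibroblast-marker cells), and Cxcl12 higher, 1002 against 758 CPM (0.40, 0.33 to 0.48, and 0.64 without them), while Cxcr4 was at -0.34 (-0.70 to 0.01). In other TECs Efnb2 was also lower, at 195 against 218 CPM, and Cxcl12 also higher, at 237 against 176 CPM. Cxcl12 was higher in Dnmt1iECKO in vein-like, aerocyte-like and general capillary-like TECs alike. Of 16 Notch pathway genes, 4 were higher and 0 passed 2-fold either way, with a median of -0.14 and Dll4 at -0.27, Hes1 at -0.28 and Notch1 at -0.13. Gja5, which chose the cells, was at 69.1 against 102 CPM.

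Vessel wall matrix genes leaned higher. Of 33 compared, 28 were higher in Dnmt1iECKO arterial ECs (19 of 25 without the fibroblast-marker cells), while 46.0% of all genes were above 0, 8 at least 2-fold and 1 (Vcan) at least 2-fold lower, with a median of 0.49 (0.39 without the fibroblast-marker cells) and 0.45 in other TECs over the same genes. The basement membrane proteoglycan Hspg2 went from 60 to 120 UMIs (1.58, and 2.53 without those cells), with 37.5% of the latter in 1 cell, the laminin chain Lama4 from 42.8 to 114 CPM (1.41 and 1.40), Col15a1 from 24.9 to 55.5 CPM (1.16 and 1.46) and Col18a1 from 30.5 to 62.9 CPM (1.04 and 1.45). Efemp1 (1.98), Lama3 (1.11) and Loxl1 (1.04) were the others with Fbln2, and Efemp1 and Loxl1 had at most 2.08 CPM left outside the fibroblast-marker cells. The abundant matrix genes Sparc (0.08), Mgp (0.13) and Col4a1 (0.08) had ratios nearer 0, and control Mgp fell from 1258 to 46.8 CPM when the fibroblast-marker cells were left out. With at least 3 markers required, the median was -0.05.

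**Figure D5:**
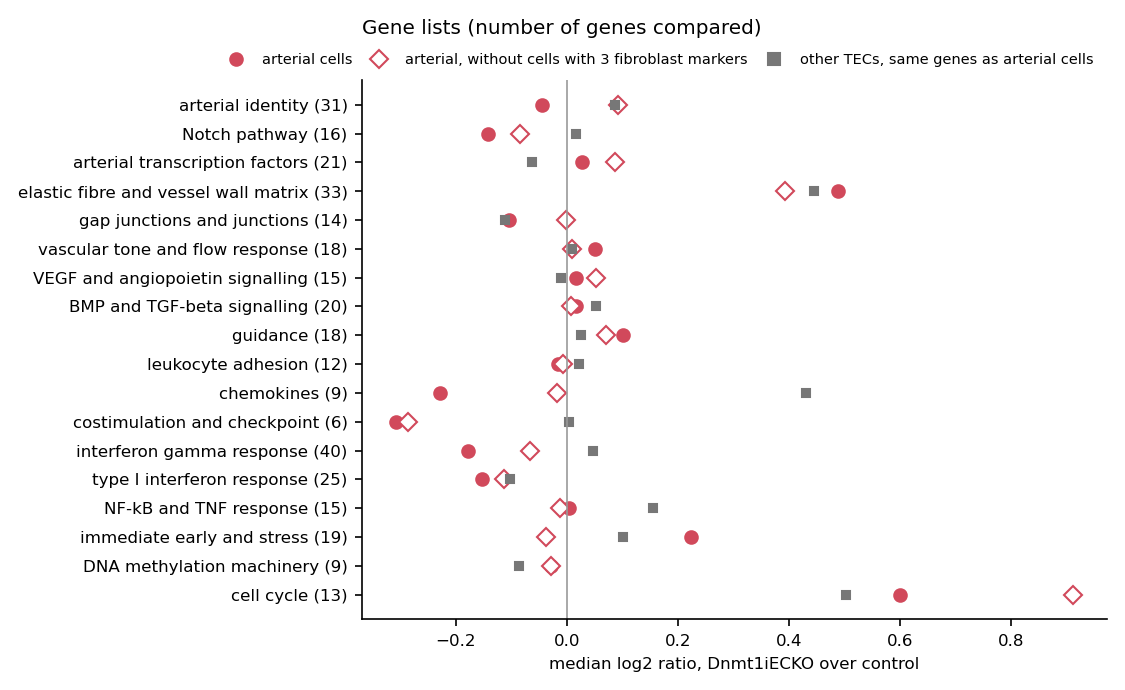
Median log2 ratio of Dnmt1iECKO over control for each of 18 gene lists in arterial ECs, in arterial ECs without the fibroblast-marker cells and in other TECs over the same genes. Vessel wall matrix (0.49) and cell cycle (0.60) lie highest in arterial ECs, and arterial identity (-0.05) and Notch (-0.14) lie near 0.

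Genes that ECs use to present antigen, respond to interferon and recruit leukocytes were not higher as groups. Of 40 genes of the interferon gamma response, 10 were higher and 0 passed 2-fold either way (median -0.18, other TECs 0.05), or 14 of 40 with a median of -0.07 without the fibroblast-marker cells, with the MHC class I genes H2-K1 (-0.07), H2-D1 (-0.08) and B2m (0.03) nearly level and the GTPase Iigp1 at 901 against 1307 CPM (-0.54). For the type I interferon response 6 of 25 were higher (median -0.15). All 6 costimulation and checkpoint genes compared were lower, 0 of them 2-fold (median -0.31, other TECs 0.00), among them Tnfsf10 (-0.30), Cd200 (-0.31) and Cd274, which encodes PD-L1 (-0.38). Of 9 chemokine and cytokine genes 4 were higher (median -0.23, other TECs 0.43), with Il6 past 2-fold (1.09, but -0.60 without the fibroblast-marker cells). Cxcl10 was at 241 against 332 CPM (-0.46). Cxcl9 was at 125 against 95.8 CPM (0.38), with 60.2% of its Dnmt1iECKO UMIs in 1 cell and a ratio of 1.52 without the fibroblast-marker cells. Without those cells 4 of 8 genes of this list were higher (median -0.02), and Cxcl1 (2.41) and Cxcl9 were past 2-fold.

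Leukocyte adhesion genes had 6 of 12 higher and a median of -0.02. Vcam1 was at 201 against 236 CPM in arterial ECs (-0.23), while in other TECs it was at 412 against 164 CPM (1.33). That value depends on the rule: without the limit on vein markers the arterial ratio was 0.72, after thinning 1.31, and without cells holding 3 markers of another cell type 0.18. Icam1 (0.17) and Icam2 (-0.10) stayed near 0. Sele, the E-selectin of inflamed endothelium, was the member at least 2-fold lower (253 and 41 UMIs, -2.05) and was found in 13 and 5 cells. The vein markers in the rule limit what these cells can hold of the venous adhesion genes, Selp among them.

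Cell cycle genes were mostly higher, 11 of 13 compared, with 5 at least 2-fold and a median of 0.60 (0.91 without the fibroblast-marker cells) against 0.50 in other TECs. A few cells carried these values, since the top 5 held 57.6% and 69.9% of the UMIs of the list. Ube2c went from 109 to 232 UMIs (1.67) and Cdk1 from 53 to 108 UMIs (1.61). The DNA methylation machinery had a median of -0.03 over 9 genes, with Dnmt1 the member past 2-fold (-0.98 without the fibroblast-marker cells). Lists for vascular tone (median 0.05), VEGF and angiopoietin signaling (0.02), BMP and TGF-beta signaling (0.02), NF-kB response (0.00) and junctions (-0.10) lay near the median of all genes. Of 20 germline genes that DNA methylation is known to silence, 0 reached 100 UMIs in arterial ECs. Summed, they stood at 1.23 CPM (interval 0.40 to 2.87) in control arterial ECs and at 6.62 CPM (interval 3.92 to 10.5) in those of Dnmt1iECKO, against 3.30 and 5.57 CPM in other TECs. The arterial sums were 5 and 18 UMIs, and the top 5 cells held 100% of them in each library. Without the fibroblast-marker cells 4 and 12 UMIs were left, so these intervals do not cover differences between cells.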

How the data were processed

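The UMI counts per gene and cell deposited by the authors were made with Cell Ranger 9.0.1 on mm10. Its cell calls were kept, and the values are not normalized. Cells with fewer than 500 detected genes or over 10% mitochondrial UMIs were removed. The study's own filter on detected genes, which the methods give as a far larger number, was not used. Counts were summed over the arterial ECs or other TECs of a library and scaled to CPM, for which exact Poisson intervals were computed. Shares have exact Clopper-Pearson intervals, and ratios exact intervals conditional on the sum of both counts. All intervals are at 95%. Doublets, the highest Scrublet scores at 0.4% per 1000 cells (257 and 263 cells), were left out only as an alternative.

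Genes with at least 100 UMIs were compared and counted past 2-fold. Ratios were computed with a count of 0 replaced by a floor of 3 counts per library. Named genes were those of the rule, Dnmt1, members of fixed lists at least 2-fold apart or with the most UMIs, the 10 highest and 10 lowest ratios of Dnmt1iECKO over control with a UMI in 10% of cells, and the 15 highest and 8 lowest ratios over other TECs with a UMI in 25% of cells. The members and the lists were chosen with earlier results of these data known. Csmd1 and Hbb-bs were chosen after their values were seen. Alternatives were other marker rules, thinning to 2000 UMIs, doublets, quality limits of 1000 genes and 5% mitochondrial UMIs, count minima of 30 and 300, median-of-ratios scaling, per-cell CPM, and cells with 3 markers of other types left out. The alternative without fibroblast-marker cells was chosen after seeing the data. Promoter windows are from the RefSeq table of GRCm38.p6 and gene positions from GENCODE. The calculation was tested on simulated data. Python 3.11.15, numpy 2.4.6, scipy 1.17.1, pandas 2.3.3, scanpy 1.11.5 and matplotlib 3.10.9 were used.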

Additional observations from a re-analysis of the deposited data

Results flagged for a closer look

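Tll1 and Vcan had ratios of opposite direction in arterial ECs and other TECs. Tll1, a metalloprotease that processes BMP antagonists and collagens, was lower in Dnmt1iECKO arterial ECs (log2 -1.70) and higher in other Dnmt1iECKO TECs (1.05). Vcan, a matrix proteoglycan, was likewise lower in arterial ECs (-1.47) and higher in other TECs (1.12). Without the fibroblast-marker cells the arterial ratios were -1.38 and -1.49. When the cells were chosen after thinning to 2000 UMIs they were -0.29 for Tll1 and 1.04 for Vcan, the latter of the same sign as in other TECs. Fibroblast-marker cells held 28.8% and 43.4% of the arterial Vcan UMIs in control and Dnmt1iECKO. The difference between the cell groups was not tested, since each condition has 1 library.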

How the results depend on the processing

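No paired analysis was possible because each condition has 1 library, and no replicate could be left out. The number of genes at least 2-fold higher in Dnmt1iECKO arterial ECs, 147 as reported, was 35 with at least 3 markers, 62 without Gja5, 60 without Mecom, 65 after thinning, 95 without doublets, 47 without cells holding 3 markers of another type, 81 without fibroblast-marker cells, 372 with a minimum of 30 UMIs and 52 with 300. The number at least 2-fold lower, 37, was 149 with 30 UMIs and 9 with 300. Genes at least 2-fold higher in arterial ECs than in other TECs, 102, were 228 with 3 markers, 206 without Bmx, 185 without Mecom, 719 after thinning and 204 with 30 UMIs. The median of the arterial identity list over other TECs, 0.48, was 0.80 with 3 markers, 0.73 without Gja5, 0.77 without Mecom, 1.18 after thinning, 0.87 without other cell types and 0.68 without fibroblast-marker cells. Between libraries, that list's median was 0.25 with 3 markers, the matrix median -0.048 with 3 markers, 0.16 without Mecom and 0.82 with per-cell CPM, and the leukocyte adhesion median 0.26 after thinning. The sign of single genes turned after thinning for 1200007C13Rik (-1.13), G0s2 (-1.87), Gria1 (-2.87), Cdo1 (-2.46), Ifi27l2a (-1.03), Serpina3f (0.58), Slfn9 (0.33), Pcdh7 (3.36), Vcan (1.04) and Lyve1 (0.72). It turned with 3 markers for Gria1 (-0.66), Coq8b (-0.77) and Ifi27l2a (-0.49), and without Gja5 for 1200007C13Rik (-0.29), Gria1 (-2.29), Coq8b (-0.14) and Ifi27l2a (-0.34). Without other cell types Coq8b was at -0.71 and Ifi27l2a at -1.11, and without fibroblast-marker cells Ifi27l2a was at -0.82. These settings left fewer cells, and the cause was not tested. Of 420 alternative values of named genes, 383 kept the sign, and of 298 list medians 244 did.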

Other observations

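Other gene groups of the arterial ECs can be given as values. Immediate early and stress genes had 14 of 19 members higher in Dnmt1iECKO, with a median log2 ratio of 0.22, which was -0.04 without the fibroblast-marker cells. Axon guidance genes had 11 of 18 higher (median 0.10), and arterial transcription factors 11 of 21 (median 0.03), with Nr2f2, a regulator of vein identity, at 43.8 and 120 CPM in control and Dnmt1iECKO (1.45). Outside the fibroblast-marker cells Nr2f2 was at 7.01 and 21.8 CPM. Aerocyte genes had 7 of 8 higher in Dnmt1iECKO arterial ECs (median 0.43, other TECs -0.65) and a median of -0.11 without the fibroblast-marker cells. Vein genes outside the rule had 2 of 9 higher (median -0.20), against a median of 0.65 in other TECs. Lyve1, listed among the lymphatic EC markers, was at 581 and 256 CPM (-1.18), with 0.04 in other TECs. The other classes also carried it and differed in direction. General capillary-like TECs were at 594 and 404 CPM, vein-like TECs at 1030 and 1134 CPM, and aerocyte-like TECs at 247 and 239 CPM.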
